A study of Homo sapiens with 29 samples.

Results

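MESP1, HAND1 and HAND2 are 3 transcription factor genes of early heart formation, and they were followed here through 4 inductions of human embryonic stem cells. All probes that the platform annotation pairs with 1 of these 3 symbols were taken, which gave 1 probe for MESP1, 1 for HAND1 and 2 for HAND2, or 3 of 20046 genes and 4 of 47323 probes. The genes were chosen by their signals on these same arrays, HAND1 because all 4 inductions reach it by day 8 and MESP1 and HAND2 for contrast, so their levels and differences are described without a test. HuES6 is an established human embryonic stem cell line, kept in a chemically defined medium and moved for induction to Matrigel and a serum-free and albumin-free medium from which insulin was withdrawn after the day of induction. RNA was hybridised to Illumina bead arrays, with 1 array of undifferentiated cells on day 0 and 1 array per induction on days 1, 2, 3, 4, 5, 6 and 8, 29 in all.

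The inductions differed in what was given on day 0. FB cells received FGF2 at 10 ng/ml and BMP4 at 1 ng/ml and no WNT activator. BW cells received BMP4 at 1 ng/ml and the WNT activator, which the labels name CHIR00921, at 1 µM, and no FGF2. FW cells received FGF2 at 10 ng/ml and the activator at 1 µM, and no BMP4. FBW cells received all 3 and are the course against which the others were set. All 4 inductions shared the cell line, the plating and, per the protocol in the labels, the WNT inhibitor IWP-2 at 2 µM on days 2 and 3. The labels repeat 1 protocol throughout, and what an induction lacked was read from the description of each sample. Each induction is 1 course of 1 line with no repeat, so no order of levels given here was set against variation between cultures. Per the labels, another series uses the same FBW arrays for days 3 and 6.

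MESP1 is a basic helix-loop-helix (bHLH) factor switched on in mesoderm as it leaves the primitive streak, and it marks the earliest precursors of the heart. HAND1 and HAND2 are bHLH factors that act later, and in the mouse heart HAND1 is mostly a gene of the left ventricle and HAND2 of the right ventricle and outflow tract. HAND1 is also made outside the heart, in trophoblast, amnion and extra-embryonic mesoderm, and HAND2 in sympathetic neurons and limb buds. bHLH factors of this class bind DNA as pairs with E proteins, and ID proteins block such pairs.

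HAND1 was reached by every induction, whereas BW and FBW, which held both BMP4 and the WNT activator, were the only 2 with MESP1 or HAND2 above background on more than 1 day at a detection p under 0.01. At the looser detection p under 0.05, MESP1 counted on 3 days in FB and 1 in FW, and on all 7 days in BW and FBW. By day 8 the HAND1 signal stood within 0.49 log2 units in all 4 inductions. On the same day HAND2 was above background in BW and FBW and in neither FB nor FW. MESP1 had its highest level on day 3 in BW and on day 2 in FBW, was above background on 1 of 7 days in FB, and was not above background on any day in FW. All signals are normalised log2 values, and elsewhere in the text a signal is called above background where the deposited detection p was under 0.01. In bulk RNA, fewer cells that make a transcript and less transcript per cell cannot be told apart.

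**Figure D1:**
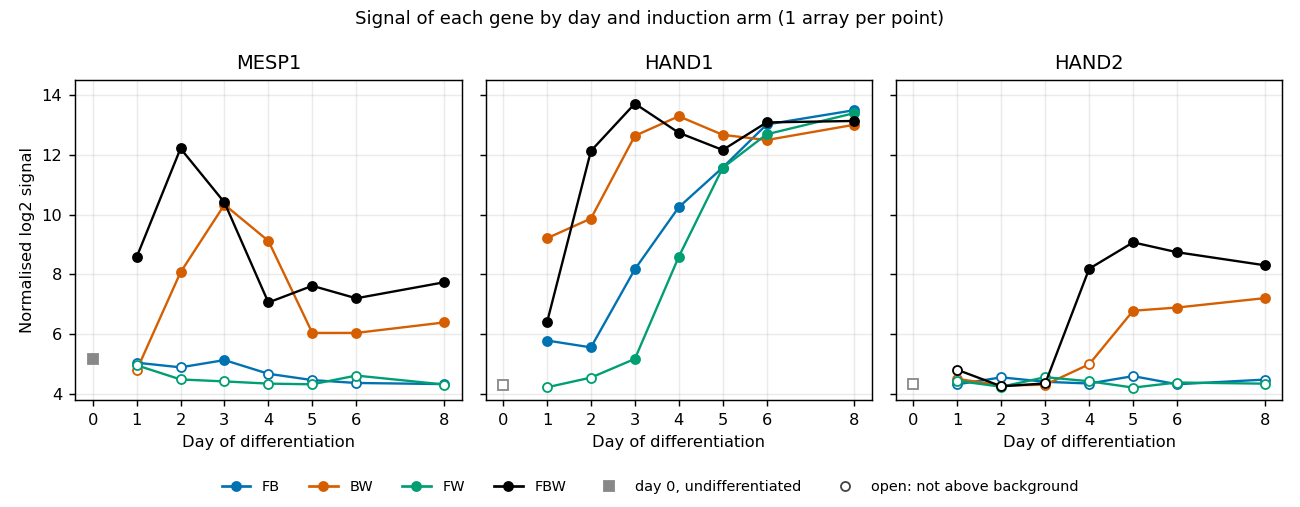
Normalised log2 signal of MESP1, HAND1 and HAND2 (y axis) by day of differentiation (x axis) in FB, BW, FW and FBW, with the undifferentiated array at day 0. Each point is 1 array, and open symbols are not above background. The HAND1 lines meet by day 8 between 13.00 and 13.48, while the FB and FW lines of MESP1 and HAND2 stay at the bottom.

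The RefSeq sequences (GRCh38.p14) just upstream of the annotated starts of HAND1 and HAND2 are shown because these relatives parted in FB and FW. Each is the 250 bases before the start, on the gene's own strand, at chr5:154478228-154478477 (minus strand) for HAND1 and chr4:173530230-173530479 (minus strand) for HAND2. Capitals mark the letters GATAA or, on the opposite strand, TTATC, the core that GATA factors are known to bind.
HAND1: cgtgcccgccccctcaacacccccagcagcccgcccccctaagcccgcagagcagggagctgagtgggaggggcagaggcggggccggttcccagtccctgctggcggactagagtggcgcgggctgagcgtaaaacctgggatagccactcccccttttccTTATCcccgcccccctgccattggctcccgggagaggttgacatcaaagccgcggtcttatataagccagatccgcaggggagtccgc
HAND2: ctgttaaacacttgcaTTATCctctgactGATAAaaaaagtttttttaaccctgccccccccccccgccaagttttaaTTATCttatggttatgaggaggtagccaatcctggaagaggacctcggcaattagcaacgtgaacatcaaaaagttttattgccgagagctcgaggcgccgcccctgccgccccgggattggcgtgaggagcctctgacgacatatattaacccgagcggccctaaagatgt

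The HAND1 window was 67.2% G and C and the HAND2 window 49.6%. The GATAA core occurred 1 time in the HAND1 window and 3 times in the HAND2 window, counting both strands, and 20.4% of 35116 windows of the same length held it. CANNTG, the core bound by bHLH pairs, occurred 0 times in the HAND1 window and 1 time in the HAND2 window, and 61.8% of all windows held it. CCAAT occurred 1 time for HAND1 and 2 times for HAND2, against 32.0% of windows with a match, and the exact letters TATAAA occurred in neither, against 10.7%. Only exact matches were counted, and near variants of a motif were not. None of the marked letters overlapped a match of another of these motifs. These matches describe letters and not binding.

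MESP1 was above background on day 0 at 5.19. In FB its signals were 5.06, 4.90, 5.14, 4.69, 4.47, 4.38 and 4.34 on days 1, 2, 3, 4, 5, 6 and 8, and only the day 3 value was above background. In BW they were 4.80, 8.07, 10.33, 9.12, 6.05, 6.05 and 6.40, above background from day 2 on. In FW they were 4.97, 4.50, 4.43, 4.36, 4.33, 4.63 and 4.33, none above background. In FBW they were 8.57, 12.21, 10.40, 7.06, 7.62, 7.20 and 7.74, all above background. FB and FW thus stayed at or below the day 0 signal, and BW and FBW had a peak followed by a lower plateau.

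The MESP1 peak of FBW on day 2 was 130-fold above day 0, and that of BW on day 3 was 35.3-fold above day 0. The day 0 signal lay near the lowest signal above background on its array, 4.93, so these folds depend on the background correction. Under quantile normalisation without it, the log2 signals were 6.87 on day 0, 12.23 in FBW on day 2 and 10.41 in BW on day 3, which are smaller gaps. The FBW signal fell by 3.34 log2 units between days 3 and 4, and the BW signal fell by 3.07 between days 4 and 5. BW minus FBW was -4.13 log2 units on day 2, -0.07 on day 3 and 2.06 on day 4. It was -1.57, -1.16 and -1.34 on days 5, 6 and 8, so the BW course stood above that of FBW on day 4 and on no other day. On day 2 MESP1 was at least 148-fold higher in FBW than in FB and at least 152-fold higher than in FW, since neither was above background. From days 4 to 8 the mean MESP1 difference from FBW was -0.50 ± 1.72 in BW (SD over 4 days). Over those days MESP1 was at least 4.84-fold higher in FBW than in FB and at least 4.99-fold higher than in FW.

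HAND1 was not above background on day 0, at 4.30. In FB its signals were 5.80, 5.57, 8.17, 10.24, 11.57, 13.01 and 13.48 on days 1 to 8, all above background. In BW they were 9.21, 9.87, 12.63, 13.28, 12.66, 12.49 and 13.00, all above background. In FW they were 4.23, 4.56, 5.18, 8.59, 11.56, 12.68 and 13.39, above background from day 3 on. In FBW they were 6.40, 12.12, 13.70, 12.73, 12.16, 13.08 and 13.12, all above background. The inductions with BMP4 and WNT activation came within 1 log2 unit of their own highest HAND1 level by day 3, and FB and FW by day 6.

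The steps of HAND1 fell on different days. The largest step in BW was the first, 4.91 log2 units from the background-level signal of day 0 to day 1, and in FBW it was 5.72 between days 1 and 2. In FB the largest step was 2.61 between days 2 and 3, and in FW 3.41 between days 3 and 4. On day 1 HAND1 was 7.01-fold higher in BW than in FBW, the day on which MESP1 was not above background in BW and was 8.57 in FBW. On day 2 the order was turned and HAND1 was 4.78-fold lower in BW than in FBW. The mean difference from FBW on days 1 to 3 was -4.23 ± 3.18 in FB and -0.17 ± 2.65 in BW (SD over 3 days), and the SDs reflect these changing gaps. In FW, where HAND1 was not above background on days 1 and 2, it was at least 2.58-fold lower than in FBW on day 1, at least 143-fold lower on day 2 and 367-fold lower on day 3. The day 3 signal in FW, 5.18, lay near the lowest signal above background on that array, 5.14, so the last fold depends on the background correction. Under quantile normalisation without it, the day 3 log2 signals were 6.86 in FW and 13.71 in FBW, a smaller gap.

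**Figure D2:**
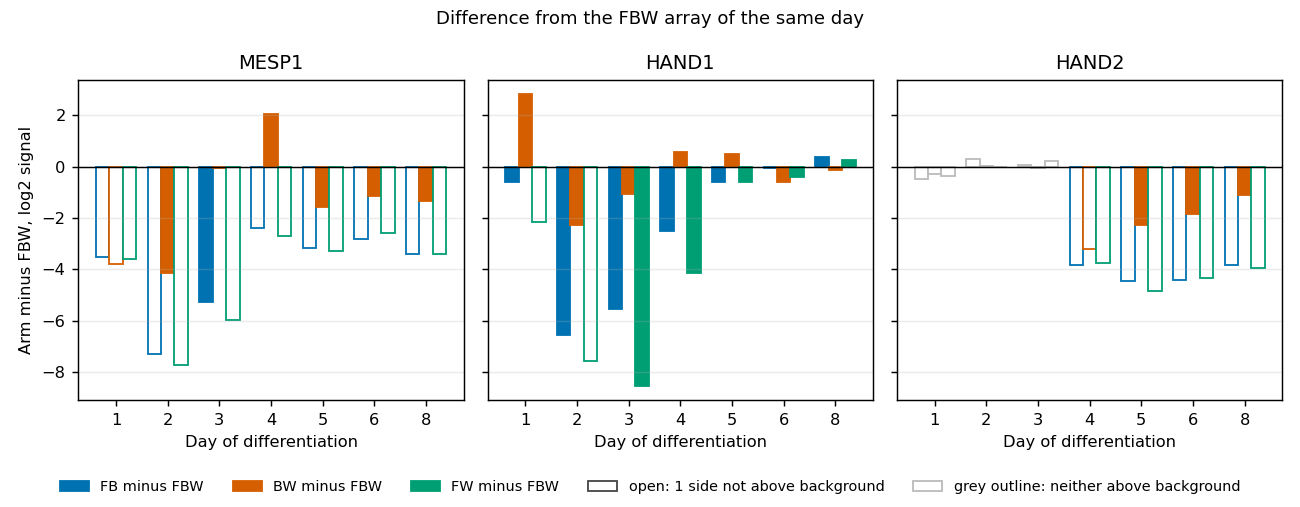
Difference of each induction from the FBW array of the same day, in log2 signal (y axis), for FB, BW and FW by day (x axis). Open bars have 1 side not above background, so their heights are differences from a background-level signal and not measured sizes. HAND1 gaps of up to 8.52 log2 units on day 3 shrink to between -0.13 and 0.36 on day 8, when MESP1 is at least 6.18-fold lower in FB and 6.31-fold lower in FW than in FBW, and HAND2 at least 9.16-fold and 9.35-fold lower.

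On day 8 HAND1 was different from FBW by 0.36 log2 units in FB, -0.13 in BW and 0.26 in FW. The gap between the highest and the lowest of the 4 inductions was 8.52 on day 3, wider than that of 99.98% of 11970 genes above background in at least 1 of the 4 arrays of that day. It was 4.69, 1.10, 0.59 and 0.49 on days 4, 5, 6 and 8. The median gap over 12174 such genes on day 8 was 0.66, and 32.2% of them had a smaller gap than HAND1. HAND1 thus passed from one of the widest gaps between inductions to one below the median. HAND1 was chosen because all 4 inductions reach it by day 8, so these places describe it and support nothing further. For MESP1 and HAND2 the day 8 gaps were 3.41 and 3.95, both down to signals of FB and FW that were not above background.

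**Figure D3:**
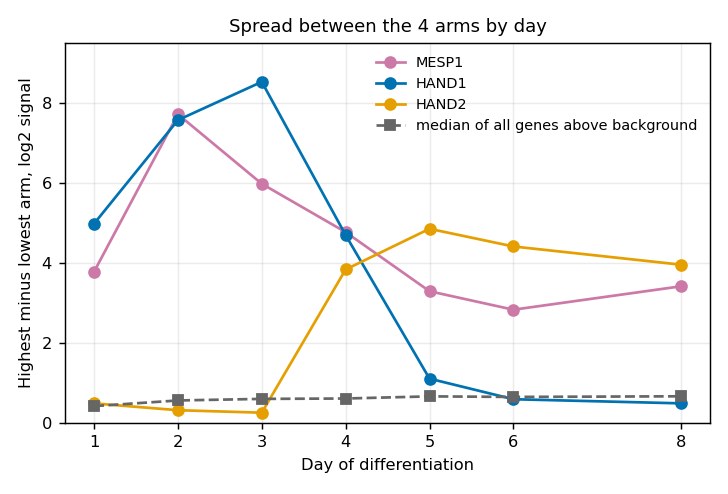
Highest minus lowest log2 signal among FB, BW, FW and FBW (y axis) by day (x axis) for MESP1, HAND1 and HAND2, with the median over all genes above background as a dashed line. HAND1 lies at 8.52 on day 3 and at 0.49, under the dashed line at 0.66, on day 8.

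The raw HAND1 signal on day 8 was 11268 in FB, 8464 in BW, 10866 in FW and 7481 in FBW, and on day 3 in FBW it was 13563. The brightest probe of each array read between 17313 and 19249, and the part of saturation in the closeness of the late HAND1 signals was not tested.

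HAND2 was not above background on day 0, at 4.34. In FB its signals ranged from 4.33 to 4.61 and in FW from 4.22 to 4.57, none above background on any of the 7 days. In BW they were 4.52, 4.29, 4.32 and 5.00 on days 1 to 4, none above background, then 6.79, 6.90 and 7.21 on days 5, 6 and 8. In FBW they were 4.82, 4.27 and 4.36 on days 1 to 3, none above background, then 8.19, 9.07, 8.74 and 8.31 on days 4, 5, 6 and 8. HAND2 therefore appeared after the MESP1 peak in both BW and FBW, and 1 sampled day later in BW than in FBW.

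The day 4 value of HAND2 in BW lay close to the detection limit, with a detection p of 0.0117. The HAND2 gap of BW against FBW narrowed over the last sampled days and was -2.28, -1.85 and -1.10 on days 5, 6 and 8, the last of which is 2.14-fold lower in BW. On days 4 to 8 HAND2 was at least 10.9-fold higher in FBW than in FB and at least 11.2-fold higher than in FW. Its highest level, on day 5 in FBW, was at least 17.7-fold above day 0. The second HAND2 probe was not above background on any of the 29 arrays, with signals between 4.23 and 4.69, and it was not used for levels.

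HAND2-AS1 is a long noncoding RNA gene that starts beside HAND2 and runs the other way. One of its 2 promoter windows in the RefSeq table, chr4:173530208-173530507 (plus strand), shares 272 bases with the full HAND2 window of the table, which runs past the start, chr4:173530180-173530479 (minus strand). Its brighter probe was above background on days 6 and 8 in BW, at 5.07 and 5.38, and on days 4, 5, 6 and 8 in FBW, at 5.53, 6.00, 6.20 and 6.02. It was not above background in FB or FW on any day. The other HAND2-AS1 probe was above background on 4 of 29 arrays.

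In limma's test over days 4 to 8, HAND2-AS1 was lower than in FBW, by at least 1.75-fold in FB (adjusted p = 6.01e-05) and at least 1.80-fold in FW (adjusted p = 3.93e-05), and at -1.09 ± 0.18 log2 units in BW (SE; adjusted p = 0.00138), where it was above background on 2 of 4 days. Here and below, a fold given as at least has 1 side not above background on any day of the window. In these limma fits the days of a window stand in for repeats, with day as a block. The adjusted p-values (Benjamini-Hochberg over all genes tested) measure how steady a difference was over days, and relatedness between neighbouring days makes them too small. A gene is called where the adjusted p was under 0.05, as 54.0% of genes were in FB, 25.7% in BW and 57.9% in FW on these days. One set of FBW arrays serves all 3 contrasts, which are therefore not independent. SCRG1, the nearest gene with a probe on the other side of HAND2, was above background on 6 arrays, those of BW on days 6 and 8 and FBW on days 4, 5, 6 and 8. On days 4 to 8 it was at least 3.41-fold lower in FB and at least 3.52-fold lower in FW than in FBW, and at -1.49 ± 0.41 in BW (SE), called lower in all 3 (limma adjusted p of 3.62e-04 in FB, 4.25e-04 in FW and 0.0206 in BW). HAND2-AS1 and SCRG1 passed the filter of 3 arrays only with FBW, the induction in which they were high. In FB and FW, where they were not above background on any day, they had to be lower, and those calls support nothing further. In BW a difference was not fixed in this way. Both were above background there on 2 of 4 days, too few for the filter without FBW, so the BW calls support nothing further either.

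FBXO8, beyond HAND2-AS1, was above background on all 29 arrays and lower, at -0.63 ± 0.11 in FB, -0.56 ± 0.11 in BW and -0.86 ± 0.11 in FW on days 4 to 8 (SE; limma adjusted p of 4.47e-04, 0.00296 and 3.85e-05). SAP30, beyond SCRG1, was called in none of the 3 contrasts on these days, with differences between 0.16 and 0.25.

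**Figure D4:**
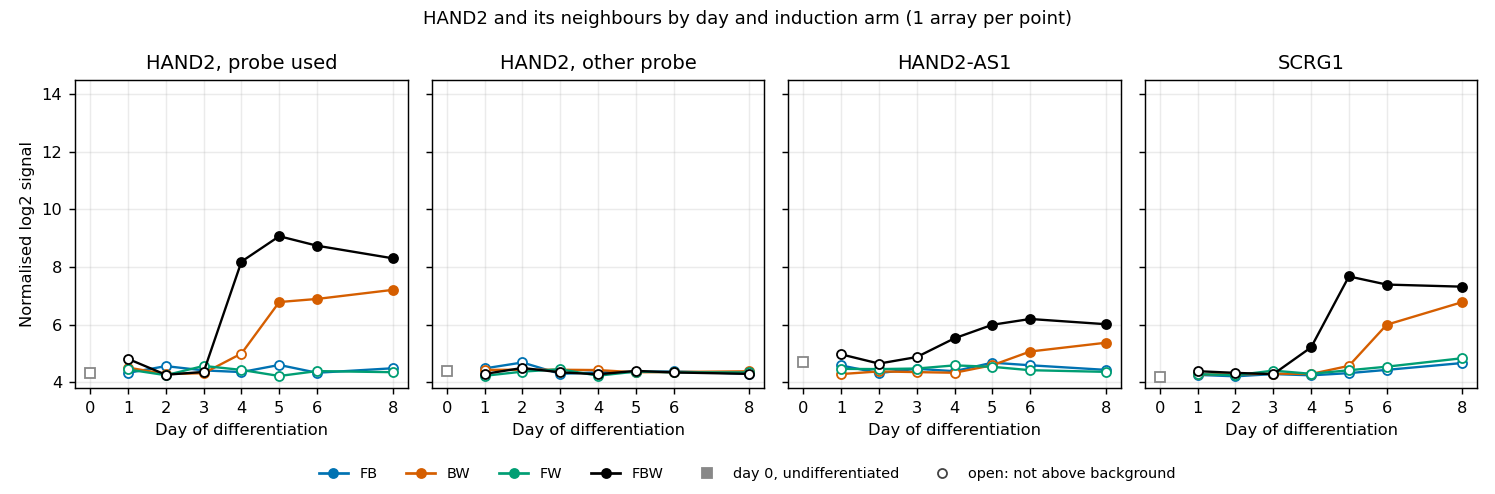
Normalised log2 signal (y axis) by day (x axis) for both HAND2 probes, HAND2-AS1 and SCRG1 in FB, BW, FW and FBW, with day 0 as a square. Open symbols are not above background. HAND2-AS1 and SCRG1 leave the baseline only in BW and FBW and from day 4 at the earliest, as does the HAND2 probe used, while the other HAND2 probe stays between 4.23 and 4.69.

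MESP2, a paralog beside MESP1 known for its part in somite formation, was above background on 4 arrays. These were days 3 and 4 in BW, at 6.07 and 5.08, and days 2 and 3 in FBW, at 7.08 and 5.93. Its highest day was thus the same as that of MESP1 in each of these inductions. In limma's test on days 1 to 3 MESP2 was not called in any contrast (adjusted p of 0.124 in FB, 0.534 in BW and 0.132 in FW). It was above background on none of these days in FB and FW and on 1 of 3 in BW, where its difference from FBW was -0.82 ± 0.51 (SE). ANPEP, which encodes the membrane enzyme aminopeptidase N and lies beyond MESP2, was above background on 9 arrays and its day 3 signal was 6.46 in BW and 8.39 in FBW, the highest of each. WDR93, whose gene overlaps MESP1, was above background on 0 of 29 arrays. PEX11A, a peroxisome gene beyond WDR93, was above background on all 29 and ranged from 6.47 to 7.45.

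Beside HAND1 no neighbour had its range. SAP30L was above background on all 29 arrays and ranged from 8.88 to 9.85, and FAXDC2 was above background on 21 arrays with a highest signal of 7.36. GALNT10 and LARP1 were above background on 0 of 29 arrays, each by the 1 probe that stood for the gene. FAXDC2 was lower than in FBW on days 4 to 8, at -1.73 ± 0.25 in FB, -1.01 ± 0.25 in BW and -1.91 ± 0.25 in FW (SE; limma adjusted p of 1.23e-04, 0.0113 and 5.01e-05), the days on which the HAND1 gaps closed. It was above background on 3 of these 4 days in FB and 2 in FW.

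The 3 genes followed each other loosely over the 29 arrays. Pearson's r was 0.35 between MESP1 and HAND1, 0.20 between MESP1 and HAND2, and 0.40 between HAND1 and HAND2. The arrays are days of 4 courses that share a day 0, so these values are descriptions. Among 12711 genes above background on at least 3 arrays, HAND1 stood at place 2453 in likeness to MESP1, and HAND2 at place 3057 in likeness to HAND1.

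The 5 genes most like MESP1 were CHRNB4, ITGA5, COL13A1, DLL3 and PREX1, with r between 0.89 and 0.91. DLL3, a Notch ligand of presomitic mesoderm, was 11.67 on day 3 in BW and 13.50 on day 2 in FBW, the days of the MESP1 peaks. ITGA5, the fibronectin receptor subunit, was 9.26 on day 3 in BW and 10.30 on day 2 in FBW, while FB and FW stayed between 6.14 and 7.05. CHRNB4, a nicotinic receptor subunit, was a dim match, with a highest signal of 6.16. Leaving out the FBW arrays kept 1 of these 5 genes among the most alike, and Spearman's rho kept 1.

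The 5 genes most like HAND1 were TENM4, KRT19, HAPLN1, GNAS and CCDC92, with r between 0.93 and 0.96. HAPLN1, which links hyaluronan to proteoglycans in the matrix, was 11.36 in FB, 11.39 in BW, 11.38 in FW and 10.18 in FBW on day 8. KRT19, a keratin of simple epithelia, was 12.43, 12.66, 12.08 and 12.47 in the same order, but already 9.98 on day 0. TENM4, a teneurin membrane protein, was 9.47 in FB, 8.95 in BW, 9.48 in FW and 8.84 in FBW on day 8. Each of these was high in all 4 inductions at the end, as HAND1 was. ISL1, a factor of heart progenitors and of amnion, stood at place 6 with r of 0.93 and is named after its values were seen. Its day 1 signal of 8.57 in BW stood against 5.37 in FBW, so it shared the early BW lead of HAND1. Leaving out FBW or BW kept 2 of the 5 genes, and Spearman's rho kept 1.

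The 5 genes most like HAND2 were BMP5, MEF2C, TAFA4, TBX2 and TGFB2, with r between 0.96 and 0.98. BMP5, a BMP ligand, was 9.17 in BW and 10.98 in FBW on day 8, and in FB and FW it was above background on 1 of 14 arrays. TBX2, a T-box repressor of chamber genes in the atrioventricular canal, was 7.78 in BW and 10.51 in FBW on day 8 and not above background in FB or FW on any day. MEF2C, a muscle and heart factor, was 7.27 in BW and 8.44 in FBW on day 8 and likewise not above background in FB or FW. TBX2 and BMP5 were above background in FBW from day 3, 1 day before HAND2. Without the FBW arrays 0 of the 5 remained among the most alike, with a lowest r of 0.93, and Spearman's rho kept 1 of them, with a lowest rho of 0.63.

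To place the 3 genes among their partners, inhibitors, upstream signals and known targets, 15 gene lists were used, of which 121 of 127 genes had a probe. On days 1 to 3, 70 list genes could be tested. In FB 2 were higher and 1 lower than in FBW, where 0.104% and 0.139% of all 11514 genes tested were called. In BW 1 was higher and 0 lower, where 0.00869% and 0% of all genes were called. In FW 3 were higher and 2 lower, where 0.460% and 0.452% of all genes were called. These early calls rest on days 2 and 3. Leaving out either left 0 list genes called in any contrast by limma, and day 3 includes an FBW array shared with another series. At an unadjusted p under 0.05 there were 14 in FB, 3 in BW and 16 in FW without day 2, and 18, 10 and 20 without day 3. Leaving out day 1 kept all 9 of the calls and gave 41 in FB, 15 in BW and 42 in FW.

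MSX1, a homeobox target of BMP signals, was lower on days 1 to 3, at -5.63 ± 0.61 in FB (limma adjusted p = 0.0143) and -5.63 ± 0.61 in FW (limma adjusted p = 0.0122; SE), where it was above background on 2 of 3 days each. Its day 1 signals were 5.17 in FB, 10.83 in BW, 5.26 in FW and 10.13 in FBW. MSX1 was thus high on day 1 in BW and FBW, a day on which MESP1 was above background in FBW only. MSX2 was at least 2.88-fold lower in FW (limma adjusted p = 0.0354), since it was not above background there on any of the 3 days. TFAP2C, a factor of early ectoderm and trophoblast, was the 1 gene called in BW, higher by 2.58 ± 0.25 (limma adjusted p = 0.0248). The pluripotency factors SOX2 and PRDM14 were higher in both FB and FW and DPPA4 in FW, with SOX2 at 5.82 ± 0.76 in FB and 5.96 ± 0.76 in FW (limma adjusted p of 0.033 and 0.0304) and above background on 1 of 3 days in FBW.

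On days 4 to 8, 90 list genes could be tested. In FB 20 were higher and 44 lower than in FBW, where 27.9% and 26.1% of all 12060 genes tested were called, 54.0% in either direction. In BW 17 were higher and 21 lower, where 13.2% and 12.5% were called, 25.7% in either direction. In FW 19 were higher and 50 lower, where 29.9% and 28.0% were called, 57.9% in either direction. The median difference over all genes tested was 0.019 in FB, 0.0015 in BW and 0.027 in FW. These shares of all genes are the ones against which each list below can be read. Some list genes passed the filter of 3 arrays only with FBW, the induction in which they were highest. TBX5, TBX20, MYOCD, ETV2, TTN and MIXL1 are among them, as are ACTN2, MYH7, CGB5, PECAM1 and FOXF1. Of these, TBX5, ETV2, ACTN2, MYH7, PECAM1 and FOXF1 are named for this limit, outside the rule. Calls of any of these genes as lower support nothing further, though the counts below include them.

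Of 14 heart factors and HAND partners, 10 were lower in FB, 8 in BW and 12 in FW, and 0 were higher in any. TBX5, TBX20 and MYOCD of this list fall under the limit just given. The median difference of these 14 was -2.02 in FB, -1.22 in BW and -2.07 in FW. With the genes not above background in an induction set at their bound, it was -1.64 in FB, -1.22 in BW and -1.74 in FW. GATA4, a zinc finger factor that acts with HAND2 in heart muscle genes, was at least 7.28-fold lower in FB (limma adjusted p = 4.91e-07) and at least 7.52-fold lower in FW (limma adjusted p = 2.69e-07), and at -1.81 ± 0.22 in BW (SE; limma adjusted p = 2.23e-04). TBX2 was at least 32.5-fold lower in FB and at least 33.5-fold lower in FW, and at -3.28 ± 0.27 in BW (SE; limma adjusted p of 2.67e-08 in FB, 1.93e-08 in FW and 1.3e-05 in BW). NKX2-5, a core heart factor, was lower in FB, at -3.89 ± 0.61 (limma adjusted p = 2.34e-04) and in FW, at -4.10 ± 0.61 (limma adjusted p = 1.35e-04). In BW its difference was -1.19 ± 0.61 and was not called (limma adjusted p = 0.168). NKX2-5 was above background on 3 of these 4 days in FB and BW and 2 in FW. ISL1 and TBX3 were called in none of the 3, and their levels, as that of HAND1, were above background in every induction on all 4 days.

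Of 13 genes reported downstream of MESP1 in mouse, 11 were lower in FB, 8 in BW and 13 in FW, and 1 was higher, CXCR4 in BW. TBX20, MYOCD and ETV2 of this list fall under the filter limit given above. PDGFRA, a receptor on cardiac mesoderm, was lower, at -5.90 ± 0.25 in FB (limma adjusted p = 1.52e-08), -1.53 ± 0.25 in BW (limma adjusted p = 0.0013) and -6.10 ± 0.25 in FW (limma adjusted p = 1.24e-08; SE). PDGFRA was above background on 3 of 4 days in FW. GATA6 was at least 4.53-fold lower in FB and at least 4.68-fold lower in FW, and at -2.0 ± 0.24 in BW (SE), called in each. CXCR4, a chemokine receptor of migrating mesoderm, was higher in BW by 1.40 ± 0.27 (limma adjusted p = 0.00347) and at least 1.68-fold lower in FB (limma adjusted p = 0.00329). GATA4, GATA6, NKX2-5, TBX20 and MYOCD stand in both of these lists, so the lists are not independent.

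Of 8 heart targets tested, 1 was higher and 5 were lower in FB, 1 was lower in BW and 6 were lower in FW. ACTN2, MYH7 and TTN of this list fall under the filter limit given above, so any call of them as lower supports nothing further. The higher gene in FB was NPPB, a natriuretic peptide, at 1.69, and the lower gene in BW was TTN, titin, at -0.70, above background on 1 of 4 days there and 3 in FBW. MYH6, atrial myosin heavy chain, was lower, at -5.07 ± 1.06 in FB (limma adjusted p = 0.00168) and -7.07 ± 1.06 in FW (limma adjusted p = 1.46e-04; SE). Its day 8 signals were 7.19 in FB, 13.96 in BW, 5.29 in FW and 14.01 in FBW, while HAND1 lay between 13.00 and 13.48 in all 4. In BW its difference was -1.54 ± 1.06 and was not called (limma adjusted p = 0.303).

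Markers of tissues outside the heart that also make HAND1 went the other way in part. Of 13 amnion and trophoblast genes tested, 6 were higher and 3 lower in FB, 7 were higher and 0 lower in BW, and 6 were higher and 3 lower in FW. XAGE2, a higher gene in BW named outside the rule, passed the filter of 3 arrays only with BW, the induction in which it was high. Its call supports nothing further. The lower genes in FB and FW were CGB5, HEY1 and PGF, and CGB5 falls under the filter limit given above. TFAP2A, a factor of amnion and surface ectoderm, was higher by 4.98 ± 0.29 in FB (limma adjusted p = 1.41e-07), 4.58 ± 0.29 in BW (limma adjusted p = 1.29e-06) and 4.90 ± 0.29 in FW (limma adjusted p = 1.29e-07; SE). VTCN1, an immune checkpoint ligand made by amnion, was 11.59 in FB, 10.50 in BW, 11.59 in FW and 8.52 in FBW on day 8. GABRP, a GABA receptor subunit of amnion, was 12.41, 11.18, 11.95 and 8.64 in the same order. The summed signal of the 16 genes of this list that had a probe was 14.05 in FB, 13.38 in BW, 13.83 in FW and 11.69 in FBW on day 8 (log2), higher in each of the 3 than in FBW. Of these 16 genes 11 were above background in FB, 14 in BW, 12 in FW and 10 in FBW on day 8, and ELF5, a trophoblast factor, was above background on 0 arrays. Over days 1 to 8 the sum ran from 8.48 to 14.05 in FB, from 10.63 to 13.38 in BW, from 8.22 to 13.83 in FW and from 9.96 to 11.69 in FBW. The part of such cells in the HAND1 signal was not tested.

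Genes of extra-embryonic mesoderm divided. Of 7 tested, 1 was higher and 3 were lower in FB, 1 was higher and 1 lower in BW, and 1 was higher and 4 were lower in FW. FOXF1 of this list falls under the filter limit given above. ANXA1, a phospholipid-binding protein, was the higher gene in each, at 3.16 ± 0.44 in FB, 2.53 ± 0.44 in BW and 3.01 ± 0.44 in FW (SE; limma adjusted p of 1.04e-04, 0.0017 and 1.22e-04). NID2, a basement membrane protein, was lower, at -4.03 ± 0.34 in FB, -1.61 ± 0.34 in BW and -4.18 ± 0.34 in FW (SE; limma adjusted p of 2.66e-06, 0.00542 and 1.64e-06), and was above background on 3 of 4 days in FB and FW. Of 4 neural crest and sympathetic neuron genes tested, 1 was higher and 0 lower in FB, 0 were called in BW, and 1 was higher and 1 lower in FW. TFAP2B was the higher gene, by at least 1.93-fold in FB and 1.72-fold in FW (limma adjusted p of 0.0292 and 0.0414), above background on 2 of 4 days in each, and SNAI2 the lower. DBH and TH, enzymes of noradrenaline synthesis, and PHOX2A, a factor of sympathetic neurons, were above background on 0 arrays. Of the 9 genes of this list with a probe, 5 were above background on at least 1 day in FB, 5 in BW, 5 in FW and 3 in FBW. The part of such cells in the HAND2 signal was not tested.

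**Figure D5:**
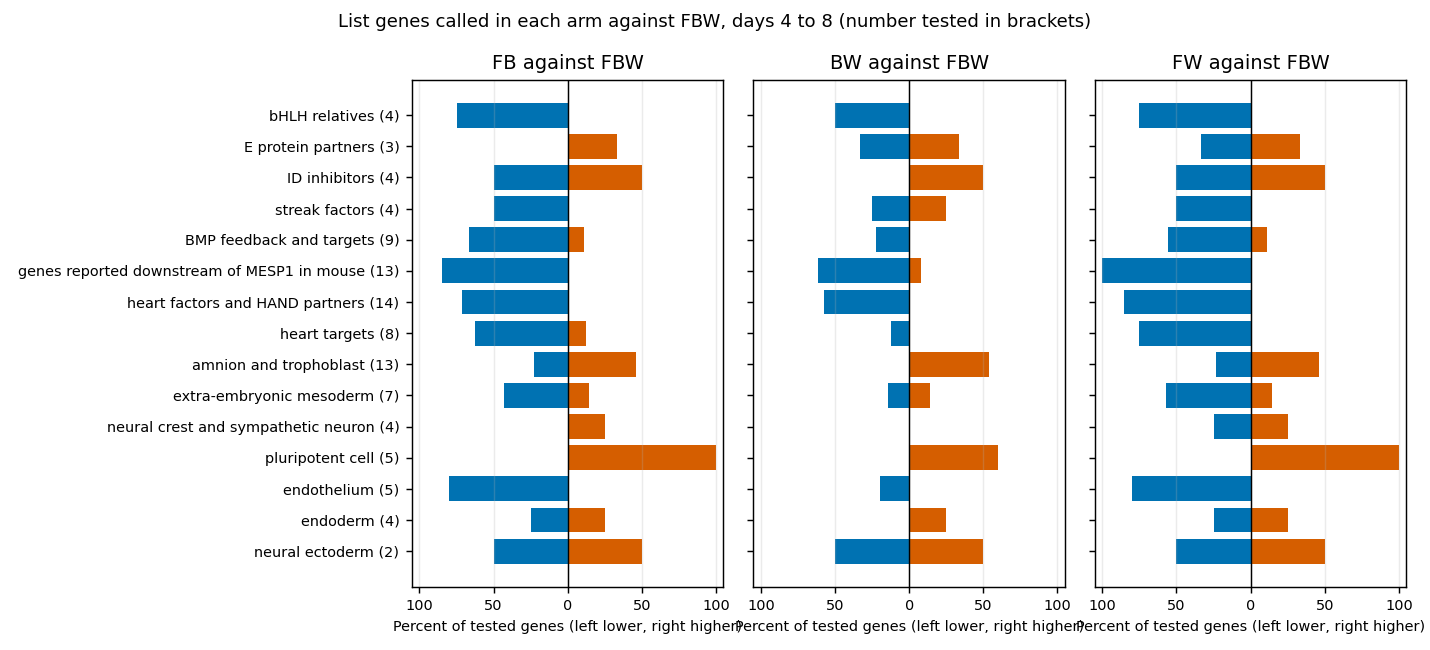
Percent of tested list genes called lower (blue, to the left) and higher (orange, to the right) on days 4 to 8 in FB, BW and FW, each against FBW, for 15 gene lists (y axis). Numbers in brackets are the genes tested per list. In FB and FW the heart lists and the genes downstream of MESP1 lie mostly to the left. So do the endothelium, bHLH relatives, BMP feedback, streak factor and extra-embryonic mesoderm lists. The pluripotent cell list lies to the right. Bars include genes that passed the filter of 3 arrays only with 1 induction.

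Other cell types were followed by short lists on days 4 to 8. Of 5 pluripotent cell genes, 5 were higher in FB, 3 in BW and 5 in FW, with SOX2 at 6.15 ± 0.33 in FB, 5.50 ± 0.33 in BW and 6.25 ± 0.33 in FW (SE; limma adjusted p of 6.86e-08, 9.26e-07 and 5.09e-08) and above background on 1 of 4 days in FBW. Of 5 endothelium genes, 4 were lower in FB, 1 in BW and 4 in FW, with CDH5, an endothelial cadherin, at least 4.36-fold lower in FB and 4.50-fold lower in FW (limma adjusted p of 0.00178 and 0.00134) and KDR the 1 called in BW. PECAM1 of this list falls under the filter limit given above. Of 4 streak factors tested, 2 were lower in FB and FW, FOXA2 and MIXL1, while in BW FOXA2 was higher at 1.86 ± 0.42 (SE; limma adjusted p = 0.00752) and MIXL1 was lower. Of 4 endoderm genes tested, AFP was higher and FOXA2 lower in FB and FW, and FOXA2 was the 1 called in BW. Both neural ectoderm genes tested were called in each contrast, OTX2 higher and LHX2 lower. All of these shifts lay beside the HAND2 and MESP1 gaps in FB and FW, and their part in those gaps was not tested.

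Among bHLH relatives of the 3 genes, 14 had a probe and 9 were above background on at least 1 array. Of the 4 tested on days 4 to 8, 3 were lower in FB, 2 in BW and 3 in FW. LYL1, a bHLH factor of blood and vessels, was lower, at -2.93 ± 0.24 in FB, -1.05 ± 0.24 in BW and -2.92 ± 0.24 in FW (SE; limma adjusted p of 2.1e-06, 0.0084 and 1.84e-06), and was above background on 1 of 4 days in FB and in FW. TWIST1, which can pair with HAND proteins, was lower, at -1.65 ± 0.23 in FB, -0.76 ± 0.23 in BW and -2.07 ± 0.23 in FW (SE; limma adjusted p of 9.71e-05, 0.0296 and 1.49e-05), and was above background on 2 of 4 days in FW. TCF21, a factor of epicardium, was lower, at -0.98 ± 0.37 in FB (SE; limma adjusted p = 0.0403), above background there on 1 of 4 days, and at least 1.80-fold lower in FW (limma adjusted p = 0.0132), while TWIST2 was called in none. MSGN1, a factor of presomitic mesoderm, was above background on 1 array, day 2 of FBW at 8.36, the array with the highest MESP1 signal. TAL1 was above background only on day 5 of FBW, at 5.35, and TCF24 only on day 0, at 4.93. TCF15, a factor of somites, was highest in FBW on day 3 at 6.13.

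The E protein partners TCF3, TCF4 and TCF12 were above background on all 29 arrays and differed little. The largest of their differences on days 4 to 8 was that of TCF12 in BW, lower, at -0.52 ± 0.12 (SE; limma adjusted p = 0.0102), and TCF12 was also lower in FW, at -0.40 ± 0.12 (limma adjusted p = 0.0161). TCF3 was higher by 0.35 ± 0.09 in FB, 0.31 ± 0.09 in BW and 0.37 ± 0.09 in FW (SE; limma adjusted p of 0.00513, 0.0216 and 0.00296). TCF4 was called in none.

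The ID inhibitors split into pairs. ID1 was higher than in FBW by 1.22 ± 0.11 in FB, 1.23 ± 0.11 in BW and 1.38 ± 0.11 in FW on days 4 to 8 (SE; limma adjusted p of 5.45e-06, 3.05e-05 and 1.81e-06). ID4 was higher too, by 0.76 ± 0.23 in FB, 1.28 ± 0.23 in BW and 0.81 ± 0.23 in FW (SE; limma adjusted p of 0.0159, 0.00232 and 0.0104). ID3 was lower, at -1.32 ± 0.16 in FB and -1.21 ± 0.16 in FW, and ID2 at -0.71 ± 0.12 and -0.65 ± 0.12 in the same inductions (SE), all called, and neither was called in BW. On day 1 the ID1 signal was 12.43 in FB, 12.23 in BW, 9.79 in FW and 11.46 in FBW. FW thus had the lowest ID1 signal on day 1, which is 1 array. Over days 1 to 3 the ID1 difference of FW from FBW was -0.145 ± 0.51 (SE) and was not called (limma adjusted p = 0.867). It was above 0 on 2 of these 3 days.

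Of 9 BMP feedback and target genes tested on days 4 to 8, 1 was higher and 6 were lower in FB, 2 were lower in BW, and 1 was higher and 5 were lower in FW. MSX2 was the higher gene in FB and FW, and SMAD6 and SMAD9 were the lower genes in BW. SMAD6, an inhibitor induced by BMP signals, was lower, at -2.67 ± 0.18 in FB (limma adjusted p = 4.48e-07), -0.93 ± 0.18 in BW (limma adjusted p = 0.00328) and -2.48 ± 0.18 in FW (limma adjusted p = 7.01e-07; SE). BMP2 was lower, at -2.78 ± 0.42 in FB and -3.00 ± 0.42 in FW (SE; limma adjusted p of 1.68e-04 and 8.28e-05). The gene of the ligand given in 3 of the inductions, BMP4, was called in none, with differences of -0.52 in FB, 0.14 in BW and -0.12 in FW. FW cells, which received no BMP4, had a BMP4 signal of 6.50 on day 4, against 7.05 in FBW.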

How the data were processed

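Gene expression of 1 array per induction and day was analysed from the deposited raw table, which holds an intensity per probe with the background included and a detection p-value beside it, per the file headers. The authors summarised the arrays with GenomeStudio, per the submitters' processing notes, and its version is not stated there. Another deposited table of the authors holds processed intensity values with a lowest value of -13.02 and the same median of 6.88 on all arrays, made by a method not given in the sources used here, and it served as an alternative.

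The neqc function of limma 3.58.1 (R 4.3.3) corrected the raw signals for background with an offset of 16, from negative controls inferred from the detection p-value, and made the arrays' distributions equal on the log2 scale. Between 16218 and 18796 of 47323 probes were above background per array (34.3% to 39.7%), and the number of arrays limits the precision. Symbols came from the platform annotation (1 for 30113 probes, several for 8, none for 17202), and a gene was read from the one of its probes that was brightest on average. "At least" folds use, on the side not above background, the higher of the probe's own signal and the lowest signal above background on that array. The window tests used limma (lmFit, then eBayes with a trend, day as a block) on all 4 inductions, with 12 arrays on days 1 to 3 and 16 on days 4 to 8, for genes above background on at least 3 of them. The script was tested on simulated data.

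The 3 genes and the lists were chosen with earlier results of these data known. Genes were named by rule: all probes of the 3 genes, every detected bHLH relative, E protein and ID gene, at most 3 called genes of each other list and contrast, the 5 genes with the highest Pearson r, and the nearest 2 genes with a probe on each side in the RefSeq table (GRCh38.p14), of which only names and order were used. Genes named outside it are said to be so or complete a count of 5 or fewer.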

Additional observations from a re-analysis of the deposited data

How the results depend on the processing

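FB, BW and FW lay below FBW in the mean MESP1 signal of both windows and on day 8, and in the mean HAND2 signal of days 4 to 8 and on day 8. This held also under quantile normalisation alone, the authors' table and an offset of 50. BW minus FBW in MESP1 was -0.07 log2 units on day 3 and 2.06 on day 4, so its means do not describe every day. HAND2 on days 1 to 3 was above background in no induction and had no direction. The sizes in FB and FW, which are differences from background-level signals, moved with the scale. For MESP1 on days 4 to 8 the mean difference from FBW was -2.94 in FB and -3.00 in FW as processed here, -1.34 and -1.36 without background correction, and -1.86 and -1.88 with an offset of 50. On day 8 it was -1.62 in FB and -1.63 in FW without background correction, and -2.19 and -2.20 with the offset. For HAND2 on days 4 to 8 it was -2.23 in FB and -2.28 in FW without background correction, -2.90 and -2.94 with the offset, and -4.54 in FB by the authors' table. On day 8 it was -1.98 in FB and -2.04 in FW without background correction, -2.63 and -2.69 with the offset, and -4.29 in FB by the authors' table. The counts of list genes called on days 1 to 3 were the least steady. In FB they were 6 with no filter on dim genes, 0 with only the compared pair of arms and 47 with array weights, and leaving out each day gave 0 to 41. In BW they were 0 without the day block, 0 with the compared pair and 2 with array weights, and 0 to 15 over left-out days. In FW they were 3 without background correction, 3 without the day block, 1 with the compared pair and 41 with array weights, and 0 to 42 over left-out days. On days 4 to 8 the BW count was 20 without the day block and 23 to 39 over left-out days, with 23 without day 5, against 54 to 65 in FB and 57 to 63 in FW. Without day 6, whose FBW array another series also uses, the counts were 54 in FB, 28 in BW and 57 in FW. Of 103 calls of named list genes on days 4 to 8, 85 held without the day block and 84 without day 5. The cause of these changes was not tested. The day block pairs the inductions by day, and there are no replicate numbers within a day to pair further. Signals near background limit MESP1 and HAND2 in FB and FW to bounds.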

Other observations

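The early lead of BW in HAND1 was also seen in TFAP2A and GATA3, of the amnion and trophoblast list, and in HAPLN1, 1 of the genes most like HAND1. They are examples, and GATA3 is named outside the rule. On day 1 TFAP2A was 9.36 in FB, 11.27 in BW, 4.59 in FW and 9.16 in FBW, and the FW value was not above background. GATA3 was 5.52 in BW on day 1 and not above background in the other 3 inductions on that day. HAPLN1 was 6.53 in BW on day 1, again with no signal above background in FB, FW or FBW. These values are single arrays and were not tested.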
